A study of Mus musculus with 28 samples.

Results

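RNA of splenic T cells was compared between mice that had received rapamycin in any of 3 formulations and mice that had received none. The comparison held 21 of the 28 libraries of the series, 14 with the drug and 7 without, and each library came from 1 mouse. The libraries were chosen by their measured level of Cd3e, which encodes the CD3 epsilon subunit used to sort T cells, at 60 or more CPM (counts scaled to the file total). Of the 7 libraries left out, 6 lay under that level. The other, RO replicate 7, held 5184 genes at 0 that were above 0 in all 21 libraries compared. The last library inside the threshold was NT replicate 5 at 75.9 CPM of Cd3e, and the first outside it was RO replicate 3 at 46.9 CPM. Cd3e chose the libraries, so it was not tested and enters no sum below.

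All mice were male, of the C57BL/6J strain and 8 to 12 weeks old, and T cells were taken from the spleen by magnetic sorting for CD3. Untreated mice (NT) gave 3 libraries. Mice injected under the skin with empty polymersomes (PS), hollow particles of the block copolymer PEG-b-PPS, gave 4, at 60 mg polymer per kg and 7.5 mg/ml. Rapamycin was given at 1 mg per kg and 0.125 mg/ml in each drug group. Group R received it under the skin in 0.2% CMC (5 libraries), group RO received the tablet form Rapamune by oral gavage (4 libraries), and group rPS received it under the skin inside polymersomes at the polymer dose of PS (5 libraries). The 4 treated groups had 1 dose per day on 11 days, 11 doses in all. NT and PS together are called the controls here. The choice of libraries kept 3 of 7 NT, 4 of 4 PS, 5 of 6 R, 4 of 6 RO and 5 of 5 rPS libraries. NT thus lost the most. No group received CMC alone or an empty gavage, so vehicle and drug cannot be told apart in R and RO.

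Rapamycin binds the small protein FKBP12, and the complex blocks mTORC1, the kinase complex that couples nutrients and growth signals to ribosome production, protein synthesis and entry into the cell cycle. In T cells it is best known for stopping clonal expansion after stimulation, and it lowers the antibody response that depends on germinal centres, where activated B cells divide and switch antibody class. Proliferation genes are commonly read through E2F sites at the start of S phase and through CHR elements in G2 and mitosis, and interferon response genes through the interferon-stimulated response element (ISRE).

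Division genes and interferon response genes had among the largest shares of members lower with rapamycin, so promoters of members of both groups are shown. Oas3, Ifit1, Cdc20, Top2a and Uhrf1 were taken from list members that hold the motif and had an unadjusted p under 0.05. Their matches are thus a result of the choice. Each is the 250 bases before the RefSeq start of the gene on build GRCm38.p6, read 5′ to 3′ on the strand of the gene, with motif matches in capitals. Motifs were searched on both strands as GAAA, any 2 bases and GAAA again (ISRE), TTTGAA (CHR), TTCNNNGAA (GAS element) and TTTCCCGC, TTTGGCGC, TTTCGCGC or TTTGCCGC (E2F). No matches overlapped one another in these 6 windows. The windows lie at chr5:120777660-120777909 on the minus strand (Oas3), chr19:34640639-34640888 on the plus strand (Ifit1), chr4:118437344-118437593 on the minus strand (Cdc20), chr11:99024190-99024439 on the minus strand (Top2a), chr17:56304063-56304312 on the plus strand (Uhrf1, 1 of its 2 starts) and chr9:65890073-65890322 on the plus strand (Pclaf). Capitals mark ISRE matches in Oas3 and Ifit1, CHR matches in Cdc20 and Top2a and an E2F match in Uhrf1.
Oas3: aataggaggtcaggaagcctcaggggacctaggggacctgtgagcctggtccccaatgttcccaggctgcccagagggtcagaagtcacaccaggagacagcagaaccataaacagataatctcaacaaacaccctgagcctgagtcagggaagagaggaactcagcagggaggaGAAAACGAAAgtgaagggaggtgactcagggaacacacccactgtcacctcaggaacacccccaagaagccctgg
Ifit1: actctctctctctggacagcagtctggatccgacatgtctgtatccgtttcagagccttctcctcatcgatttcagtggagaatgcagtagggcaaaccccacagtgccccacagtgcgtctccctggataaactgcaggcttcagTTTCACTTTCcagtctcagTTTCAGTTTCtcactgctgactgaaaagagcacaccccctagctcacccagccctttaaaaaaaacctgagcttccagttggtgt
Cdc20: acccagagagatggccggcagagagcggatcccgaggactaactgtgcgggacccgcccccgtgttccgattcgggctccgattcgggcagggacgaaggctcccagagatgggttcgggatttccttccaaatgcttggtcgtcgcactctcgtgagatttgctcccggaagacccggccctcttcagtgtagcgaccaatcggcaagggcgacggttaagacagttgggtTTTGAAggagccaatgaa
Top2a: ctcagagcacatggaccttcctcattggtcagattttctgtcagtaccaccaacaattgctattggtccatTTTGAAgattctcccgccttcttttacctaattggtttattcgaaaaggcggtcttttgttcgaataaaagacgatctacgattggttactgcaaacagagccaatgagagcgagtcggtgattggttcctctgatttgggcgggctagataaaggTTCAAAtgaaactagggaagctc
Uhrf1: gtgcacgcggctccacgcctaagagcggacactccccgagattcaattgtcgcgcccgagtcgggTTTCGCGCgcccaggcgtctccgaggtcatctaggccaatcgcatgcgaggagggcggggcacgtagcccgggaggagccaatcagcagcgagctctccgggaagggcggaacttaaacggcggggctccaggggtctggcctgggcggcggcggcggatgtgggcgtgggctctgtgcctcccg
Pclaf: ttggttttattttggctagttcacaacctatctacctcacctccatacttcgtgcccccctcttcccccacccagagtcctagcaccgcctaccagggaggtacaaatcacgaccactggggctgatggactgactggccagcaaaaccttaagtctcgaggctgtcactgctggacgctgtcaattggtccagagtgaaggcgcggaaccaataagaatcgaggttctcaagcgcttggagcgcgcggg

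The Oas3 match lies 75 to 66 bases before the start, and Ifit1 has 2 matches, at 104 to 95 and 85 to 76 bases before it. Cdc20 has its CHR match 18 to 13 bases before the start, and Top2a has 1 at 23 to 18 and another at 179 to 174. The Pclaf window holds none of these letters. Matches also stand before genes that were higher with the drug. Syt6 has an ISRE match 203 to 194 bases before a start, and Bcl2 has a CHR match 120 to 115 bases before its start. Of 20 interferon list genes with a promoter in the table, 10 (50%) hold an ISRE match, against 3.37% of 10222 genes tested that have one. A CHR match stands in 8 of 21 mitosis genes (38.1%, against 13.3%) and an E2F match in 6 of 21 S phase genes (28.6%, against 3.83%). Over all promoters of the same length, an ISRE stands in 3.46% of 27025 genes, a CHR in 18.3%, an E2F in 2.16% and a GAS element in 8.13%. Among the genes tested, 39 of 344 with an ISRE (11.3%) were lower with rapamycin at an unadjusted p under 0.05, against 371 of 9877 without it (3.76%). For the CHR element the shares were 6.39% of 1361 genes and 3.65% of 8860. The E2F site had 5.37% of 391 and 3.96% of 9830, and the GAS element 5.36% of 765 and 3.9% of 9456. Within the interferon list, the median log2 fold change was -0.42 for the 10 genes with the match and -0.37 for the 9 tested genes without it. A match is a run of letters, and binding was not measured.

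Total counts of the compared libraries ran from 4286885 to 15696529, and a gene at 0 could have been at up to 0.191 to 0.7 CPM (3 counts, counting error only). Levels below are CPM after TMM scaling, without Malat1 and mt-Rnr2, the 2 genes that were at 0 in every NT library. Malat1 was at 16041 to 27818 CPM in the other libraries compared. The labels do not say whether the NT files were made in the same way as the others, so the making of the files and the group cannot be told apart where a result rests on NT. The 5 T cell markers other than Cd3e were detected, at a summed level of 238 to 1620 CPM. The 4 B cell markers summed to 166 to 2204 CPM in the same libraries, so RNA of other cell types was present. The B cell sum had a median of 1327 CPM in controls and 1545 with the drug. Those medians exceeded the T cell medians of 700 and 628 CPM, although in NT alone the T cell median was higher (1433 against 1254 CPM). In such bulk samples fewer cells of a type and less RNA per cell cannot be told apart. The libraries rPS replicates 4 and 5 stood farthest from the rest on the leading axes of variation (24% and 19.4% of variance), and NT replicate 5 had the lowest T cell sum, 238 CPM. At the other end, NT replicates 6 and 2 had the highest T cell sums, 1620 and 1433 CPM. Results that move without rPS replicates 4 and 5 or without NT replicate 5 are also given without them. The labels do not say whether mice shared cages or days, so p-values measure the spread between these mice.

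Rapamycin was accompanied by lower Spc24 and by higher 4933440M02Rik. Spc24 encodes a subunit of the NDC80 complex that ties kinetochores to microtubules, and 4933440M02Rik is a transcript known by its clone name. Both were among the 3 genes called, at a Benjamini-Hochberg adjusted p under 0.05 in edgeR's quasi-likelihood test, of 15871 tested (0.0189%). Of these, 2 were lower (0.0126%) and 1 was higher (0.0063%). At an unadjusted p under 0.05 there were 1043 genes (6.57%), 633 lower (3.99%) and 410 higher (2.58%). Some of the genes named below were chosen after their values were seen.

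Spc24 was at 9.14, 3.31 and 5.42 CPM in NT, at 4.64, 4.61, 4.68 and 6.1 in PS, at 2.36, 3.29, 3.91 and 2.31 in RO, at 2, 1.82, 1.41, 1.62 and 1.71 in R and at 2.44, 2.7, 1.29, 0.962 and 1.38 in rPS. Thus 13 of 14 drug libraries lay below the lowest control, and 1 oral library lay above it. Spc24 fell by 1.35 ± 0.23 (SE) on the log2 scale (edgeR adjusted p = 0.0462). 4933440M02Rik was at 0.772, 2.96 and 2.46 CPM in NT and 1.49, 2.74, 2.22 and 1.33 in PS, against 4.13, 3.04, 3.53 and 2.53 in RO, 7.86, 9.09, 9.39, 10.4 and 7.54 in R and 16.9, 11.2, 5.94, 10.6 and 10.3 in rPS. It rose by 1.97 ± 0.35 (edgeR adjusted p = 0.0462), with 13 of 14 drug libraries above every control.

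**Figure D1:**
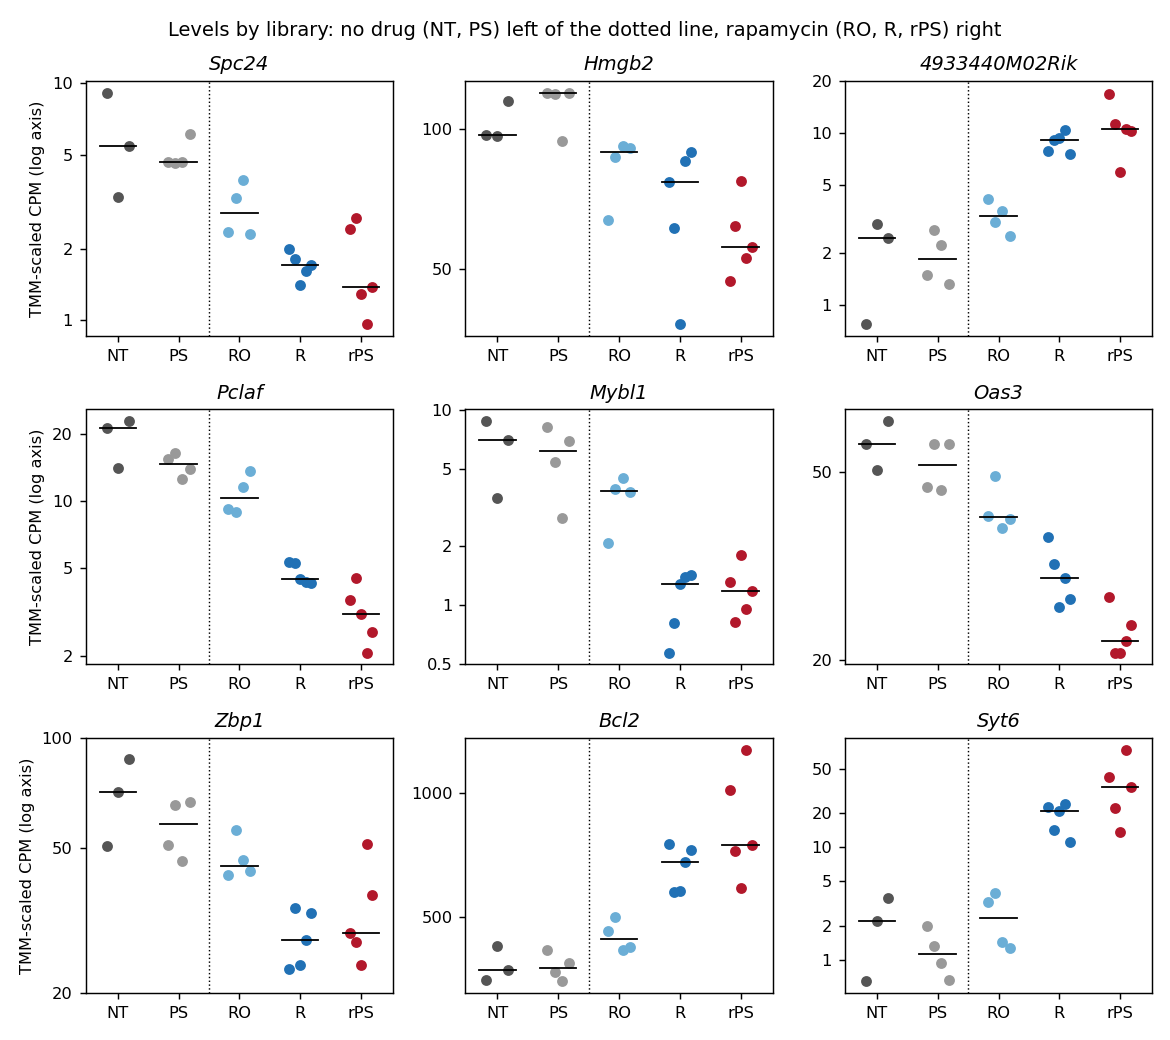
TMM-scaled CPM (vertical log axes) of 9 genes in each of the 21 libraries, by group, with a line at each group's median and a dotted line between the controls (NT, PS) and the drug groups (RO, R, rPS). The R and rPS libraries stand apart from the controls in the panels of Spc24, Pclaf, Syt6 and 4933440M02Rik, and the RO libraries lie between the 2 sets or among the controls, except that 2 of them lie among the rPS libraries for Spc24 (2.36 and 2.31 CPM).

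These calls were close to the threshold. No gene was called (edgeR adjusted p under 0.05) without rPS replicates 4 and 5, where 1169 genes had an unadjusted p under 0.05 and Spc24 and 4933440M02Rik stood at log2 fold changes of -1.25 and 1.95. None was called without any single NT, PS, R or rPS library either, while leaving out RO replicate 4, 5, 6 or 1 gave 9, 10, 13 and 10 calls. Comparing the mean of the 3 drug groups with the mean of the 2 control groups, in a fit that gives each group its own mean, called 50 genes (0.315%), 44 lower (0.277%) and 6 higher (0.0378%), the 3 of the pooled fit among them.

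The 3 drug groups differed from each other. The test for a difference among R, RO and rPS called 11 of 17000 genes (0.0647%), with 1643 (9.66%) at an unadjusted p under 0.05. Among the 11 were Pclaf (edgeR adjusted p = 0.00451), Syt6 (0.0079), Oas3 (0.0238), Cep55 (0.0358) and Ighg2c (0.0358). A split by route, chosen after these values were seen, called 58 of 15605 genes (0.372%) for R and rPS against the controls, 45 lower (0.288%) and 13 higher (0.0833%). The same controls against RO alone gave 0 calls of 15988 in edgeR, with 195 genes (1.22%) at an unadjusted p under 0.05. These counts share their controls and are no test of a difference between routes. The injected and oral groups had 10 and 4 libraries.

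Pclaf, a partner of the replication clamp PCNA, is a gene of that kind. It was at 21.4, 14.1 and 22.9 CPM in NT, 15.4, 16.5, 12.5 and 13.9 in PS, 9.15, 8.86, 11.5 and 13.7 in RO, 5.28, 5.25, 4.46, 4.29 and 4.27 in R and 3.56, 4.47, 3.1, 2.06 and 2.57 in rPS. The injected libraries did not overlap the controls, and 1 of the 4 oral libraries did. The pooled log2 fold change was -1.49 ± 0.28 (edgeR adjusted p = 0.0528). It was -2.07 ± 0.19 for R and rPS and -0.62 ± 0.21 for RO.

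All 26 genes of mitosis tested had a negative log2 fold change (median -0.62, from -1.20 to -0.14), beside a median of -0.00 over all genes tested, and 17 of 26 were lower at an unadjusted p under 0.05 (3.99% of all genes were). None of the 26 was called. The members with the smallest p were Nuf2, a partner of Spc24 in the NDC80 complex (-1.11 ± 0.28, 2.34 to 8.62 CPM in controls and 0.687 to 3.86 with the drug), Stmn1, which destabilises microtubules (-0.82 ± 0.20), Cdc20, an activator of the anaphase-promoting complex (-0.64 ± 0.16), and Top2a, the topoisomerase that untangles sister chromatids (-0.95 ± 0.25). Top2a was at 52.1, 68.4 and 111 CPM in the lowest, median and highest control and at 12.4, 37.3 and 63.7 with the drug. The 5 lowest Top2a values of the drug groups were 12.4, 14.4, 22.2, 26.9 and 27.9 CPM, in rPS and R. The median of the list was -0.77 with R and rPS, -0.39 with RO and -0.54 without rPS replicates 4 and 5. It was -0.80 with NT as the only controls and -0.40 with PS as the only controls. Stmn1 was at 26.4 to 33 CPM in NT, 14.5 to 19.7 in PS and 5.52 to 16.8 with the drug. Mki67, the usual mark of cycling cells, overlapped widely, at 92.2 to 255 CPM in controls and 27.1 to 243 with the drug (-0.44 ± 0.29, edgeR adjusted p = 0.885). Among the R libraries, those at 243 and 224 CPM were among the highest of all for Mki67.

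The S phase list had 10 of 26 members lower at an unadjusted p under 0.05 and 0 higher, with a median of -0.21. Besides Pclaf these included Uhrf1, which guides maintenance of DNA methylation (-0.64 ± 0.20), and Mcm5 of the replicative helicase (-0.28 ± 0.10). Uhrf1 was at 27.8 to 37.1 CPM in controls and 8.52 to 34 with the drug. Its RO libraries, at 28.3, 25.4, 34 and 32.6 CPM, lay largely among the controls, and its rPS libraries at 8.52 to 18.4 CPM all lay below them. In homologous recombination 9 of 15 genes were lower and 0 higher (median -0.43). Of these, Brip1, a helicase of that pathway, stood at -0.79 ± 0.20 and Fancd2 of the crosslink repair pathway at -0.59 ± 0.20. Outside the lists, Hmgb2, a chromatin protein of dividing cells, was the 1 gene (0.0063% of those tested) whose drug libraries all lay below all controls, at 37.9 to 92.2 against 94.4 to 120 CPM. Its log2 fold change was -0.64 ± 0.14 (edgeR adjusted p = 0.146), and 0 genes lay wholly above.

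**Figure D2:**
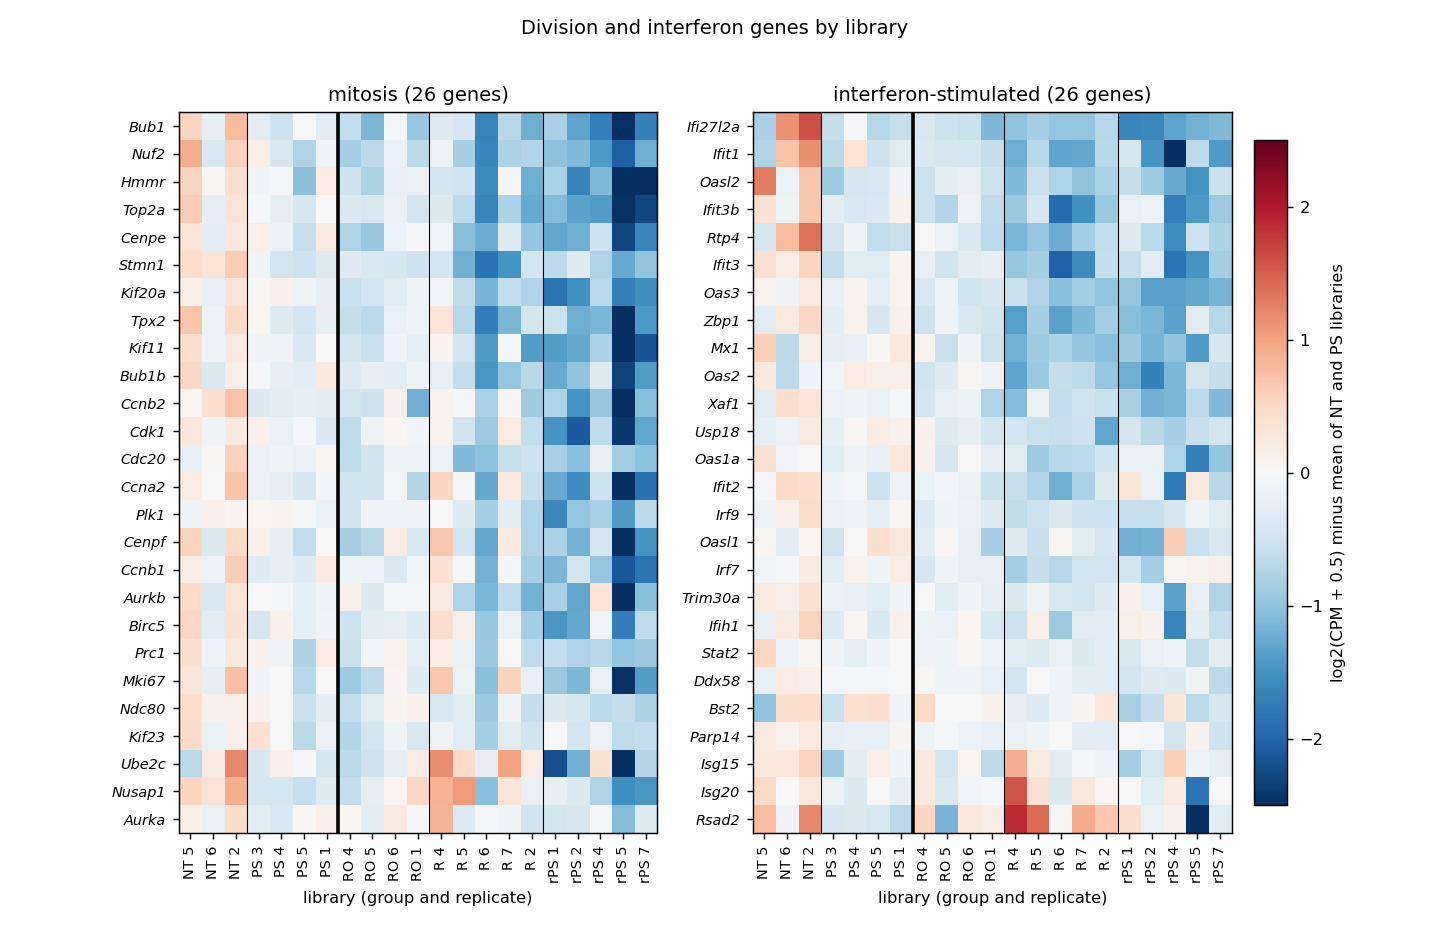
log2(CPM + 0.5) of each member of the mitosis list (26 genes) and the interferon list (26 of its 27 genes), minus the mean of the NT and PS libraries, in the 21 libraries (columns, colours limited at 2.5 either way). In the interferon panel blue (lower) fills most of the R and rPS columns right of the thick line and is paler in RO. In the mitosis panel rPS replicates 5 and 7 have the lowest list means (log2 CPM of 1.41 and 2.25), and R replicate 6 (2.42) comes next. The R columns range from near the controls (R replicate 4) to dark blue (R replicate 6) and overlap both RO and rPS.

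Interferon response genes had the highest share of members lower. Of 27 tested, 20 were lower at an unadjusted p under 0.05 and 0 were higher, with a median of -0.51 (-0.46 without rPS replicates 4 and 5), and none was called. With NT as the only controls the median was -0.60, and with PS as the only controls it was -0.32. The mean log2 CPM of the list was below that of the lowest control in 11 of 14 drug libraries. Oas3, a sensor that makes 2-5A in response to double-stranded RNA, was at 57.3, 50.6 and 64.1 CPM in NT, 46.4, 57.4, 45.8 and 57.2 in PS, 40.4, 49.1, 38.1 and 39.8 in RO, 36.4, 31.9, 25.9, 29.8 and 26.9 in R and 27.2, 20.7, 20.7, 21.9 and 23.7 in rPS. All injected libraries and 3 of 4 oral libraries lay below every control. Its log2 fold change was -0.81 ± 0.15 (edgeR adjusted p = 0.0528).

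Zbp1, a sensor of Z-form nucleic acid, stood at -0.81 ± 0.17 (45.9 to 87.5 CPM in controls, 23.3 to 55.9 with the drug). Ifi27l2a stood at -1.30 ± 0.28, Xaf1 at -0.67 ± 0.15, the antiviral GTPase Mx1 at -0.80 ± 0.20, Ifit1 at -1.11 ± 0.30 and Irf9, a subunit of the factor that binds the ISRE, at -0.41 ± 0.09. Of these, Ifi27l2a was at 12.6, 50.1 and 70.1 CPM in NT, 13.7 to 21.9 in PS and 6.93 to 17.1 with the drug. MHC class I genes had a smaller share: 6 of 16 were lower at an unadjusted p under 0.05 and 0 higher (median -0.15). Psmb9, an interferon-induced subunit of the immunoproteasome, was at 116 to 131 CPM in controls and 80.7 to 125 with the drug, with 13 of 14 drug libraries below every control (-0.37 ± 0.08, edgeR adjusted p = 0.146).

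RNA of antibody-secreting and germinal centre B cell genes was detected, although the cells were sorted for CD3. In the plasma cell list 9 of 15 genes were lower at an unadjusted p under 0.05 and 0 higher (median -0.65), and in the germinal centre list 7 of 11 and 0 (median -0.59). None was called. Ighg2c, an IgG heavy chain gene, was at 81.8, 36.9 and 143 CPM in NT, 51.9, 121, 33.4 and 68.3 in PS and 24.5, 43, 100 and 48.8 in RO, against 5.43, 6.46, 9.51, 26.1 and 11.8 in R and 12.5, 5.88, 6.98, 4.12 and 5.92 in rPS. The injected libraries all lay below every control and the oral ones lay largely among them. The pooled log2 fold change was -1.77 ± 0.52 (edgeR adjusted p = 0.36), and it was -3.00 ± 0.37 for R and rPS and -0.49 ± 0.44 for RO. Ighg3 stood at -1.36 ± 0.29 and Ighg2b at -1.56 ± 0.38. Ighm, which naive B cells also express, was at 2145 to 4265 CPM in controls and 754 to 4603 with the drug (-0.30 ± 0.21), and the light chain Igkc stood at -0.53 ± 0.27.

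Mybl1, a MYB factor of germinal centre B cells, was at 8.75, 3.53 and 7.02 CPM in NT, 8.12, 5.38, 2.81 and 6.9 in PS, 2.07, 3.92, 4.49 and 3.79 in RO, and 0.571 to 1.42 in R and 0.823 to 1.81 in rPS. No injected library reached the lowest control, whereas 3 of the 4 oral libraries lay above it. The log2 fold change was -1.69 ± 0.33 (edgeR adjusted p = 0.0767). S1pr2, which holds B cells in the germinal centre, stood at -0.65 ± 0.15. Of general B cell genes, 0 of 18 had an unadjusted p under 0.05 in either direction (median 0.12). Their median was -0.30 for rPS against PS and 0.35 for R and RO against NT. The 4 B cell markers summed to 166 to 2073 CPM with the drug and 1002 to 2204 CPM without. The 3 plasma cell markers summed to 36.4 to 346 and 203 to 545 CPM, and rPS replicate 5 was lowest in both. Without rPS replicates 4 and 5 the plasma cell median was -0.66 and the germinal centre median -0.55. With NT as the only controls they were -0.76 and -0.61, and with PS as the only controls -0.40 and -0.38. The part of these cells in the other results was not tested.

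Fewer genes were higher. Syt6, of the synaptotagmin family of membrane-trafficking proteins, was at 0.643, 2.19 and 3.57 CPM in NT, 1.99, 1.32, 0.937 and 0.663 in PS, 3.25, 3.92, 1.43 and 1.26 in RO, 22.7, 14.3, 20.9, 24.3 and 11.1 in R and 42.1, 22.3, 13.7, 73.7 and 34.2 in rPS. Every injected library exceeded every control and every oral library, and the oral libraries overlapped the controls. The pooled log2 fold change was 3.65 ± 0.71 (edgeR adjusted p = 0.0767). Bcl2, the inhibitor of apoptosis, was at 349 to 426 CPM in controls, 416 to 499 in RO, 575 to 751 in R and 587 to 1277 in rPS (0.83 ± 0.18, edgeR adjusted p = 0.128), and 12 of 14 drug libraries lay above every control. Maml3, a coactivator of Notch, stood at 0.59 ± 0.12 and Cdk6, a kinase of G1, at 0.34 ± 0.08, with 12 and 13 of 14 drug libraries above every control. In the list of the BCL2 family, from which Bcl2 itself was left to the IL-2 list, Bbc3 (0.85 ± 0.28) and Bcl2l1 (0.54 ± 0.21) were higher at an unadjusted p under 0.05 of 13 tested.

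The target of the drug showed little difference in RNA. Mtor was at 118 to 145 CPM in controls and 124 to 191 with the drug (0.13 ± 0.08, edgeR adjusted p = 0.849), and Fkbp1a, which encodes FKBP12, at 57.4 to 103 and 64.1 to 102 CPM (-0.05 ± 0.10, edgeR adjusted p = 0.992). Both ranges overlapped. Of 26 genes of the mTOR pathway, 4 were higher at an unadjusted p under 0.05 and 0 lower (median 0.09, against 2.58% of all genes higher). They were Fkbp5 (0.37 ± 0.12), the mTORC1 inhibitors Sesn1 (0.26 ± 0.10) and Ddit4 (0.67 ± 0.31), and Flcn (0.20 ± 0.08). Ribosome biogenesis had 5 of 24 genes higher and 0 lower (median 0.11), among them Polr1b, a subunit of RNA polymerase I (0.26 ± 0.08). Cytosolic ribosomal proteins had a median of -0.05 (0.13 without NT replicate 6), with 1 of 26 lower. In glycolysis and in the NRF2 list, 0 of 22 and 0 of 19 genes had an unadjusted p under 0.05 in edgeR, and no gene of either was called.

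**Figure D3:**
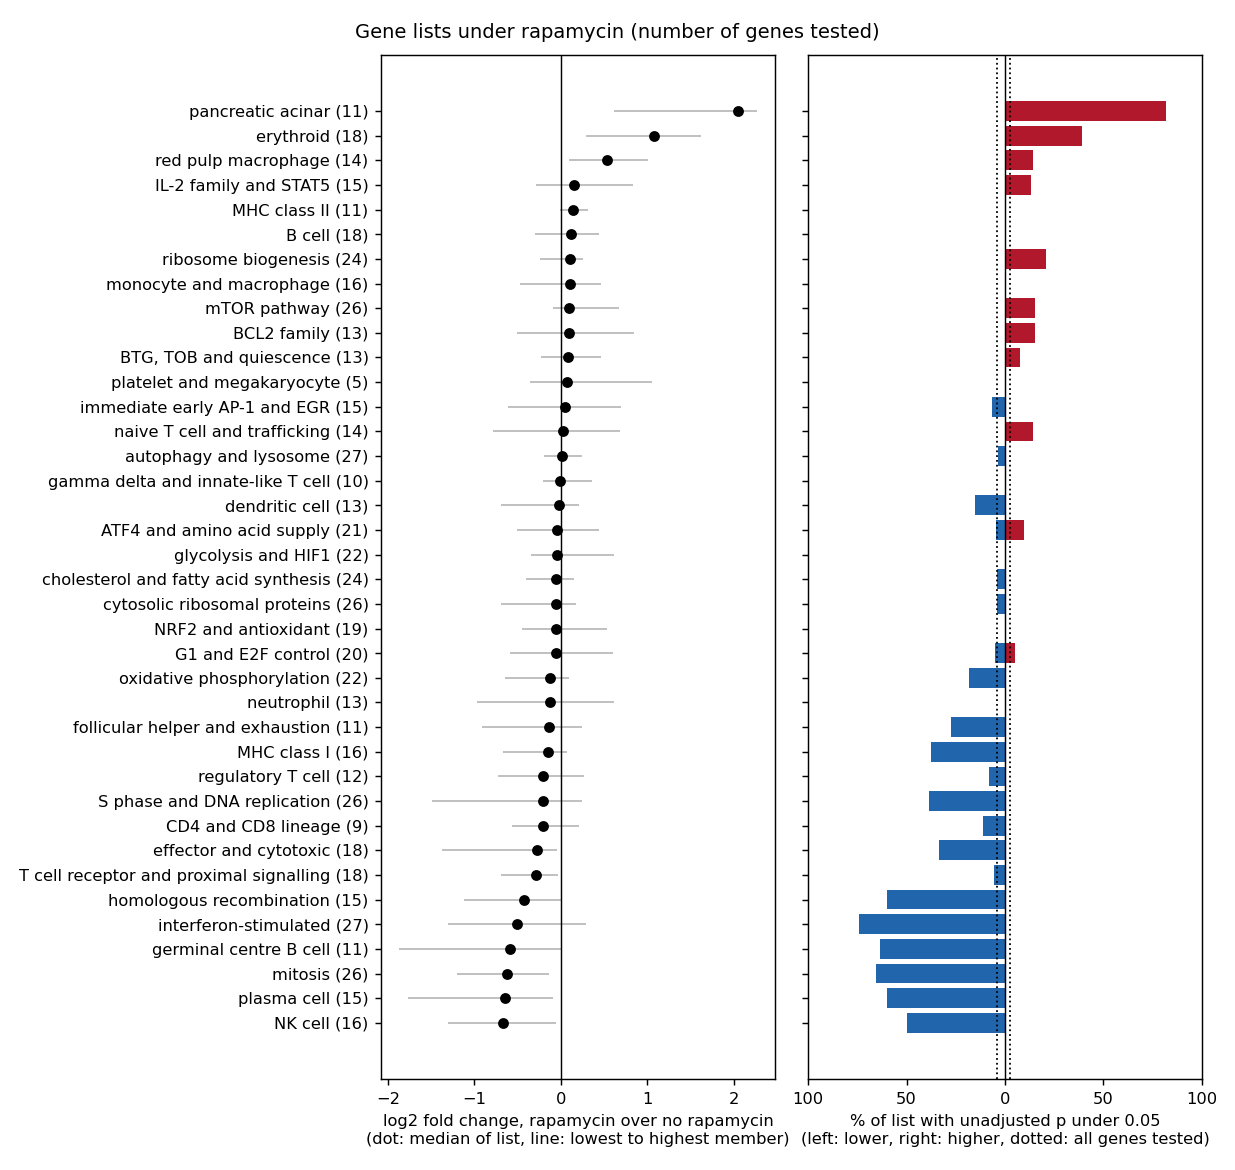
Left, the median (dot) and range (line) of log2 fold changes with rapamycin in each of 38 gene lists, with the number of genes tested. Right, the percent of each list lower (left of 0) or higher (right) at an unadjusted p under 0.05, with dotted lines at the 3.99% and 2.58% of all genes. On the right, the mitosis, interferon, plasma cell, germinal centre, homologous recombination and NK cell lists reach farthest to the left, and the acinar and erythroid lists to the right.

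Fold changes of cytotoxic genes also moved with the choice of control group. In the effector list 6 of 18 genes were lower at an unadjusted p under 0.05 and 0 higher (median -0.28), and in the NK cell list 8 of 16 and 0 (median -0.67). Gzma, a granzyme, was at 69.5, 29.4 and 52.6 CPM in NT but at 16.6, 11.7, 16 and 18.4 in PS, beside 12 to 15.7 in RO, 7.3 to 20.2 in R and 2.2 to 15.9 in rPS. The untreated libraries stood above all others, and the PS libraries overlapped the drug groups. Gzmb stood at -1.14 ± 0.27. The effector median was -0.55 with NT as the only controls and -0.11 with PS as the only controls, and the NK cell median was -1.13 and -0.02. Without NT replicate 5 the NK cell median was -0.36. The 2 NK markers summed to 15 to 50.3 CPM with the drug and 19.5 to 57.8 without.

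T cell genes themselves are given as a description, since a T cell gene chose the libraries. The list of the T cell receptor and its signalling had a median of -0.29, with 1 of 18 genes (Trac) lower at an unadjusted p under 0.05. Leaving out NT replicate 6, 2 or 5 moved that median to -0.14, -0.19 or -0.43. Cd4 was at 80 to 288 CPM in controls and 66 to 276 with the drug (-0.56 ± 0.23), Cd8a at 144 to 519 and 111 to 611 CPM (-0.08 ± 0.23), and Foxp3, the factor of regulatory T cells, at 15.7 to 49.5 and 14.3 to 44.7 CPM (-0.14 ± 0.22). The ranges of all 3 overlapped. The balance of Cd4 over Cd8a, as a log2 ratio of counts, was -1.25, -0.84 and -0.70 in the lowest, median and highest control and -2.43, -1.27 and -0.02 with the drug. The difference in means was -0.49 (exact two-sided permutation test over 116280 splits, p = 0.087). Without rPS replicate 4 it was -0.59 (exact permutation p = 0.0211), so that 1 library decides on which side of 0.05 it falls.

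Marker sums of pancreatic acinar and red cells were highest in drug libraries, at 49 CPM in rPS replicate 2 and 7856 CPM in R replicate 4. In the pancreatic acinar list, digestive enzymes of the neighbouring pancreas, 9 of 11 genes were higher at an unadjusted p under 0.05 (median 2.05), and in the erythroid list 7 of 18 (median 1.08). Neither had a gene called or a gene lower. Prss2, a trypsinogen, was at 0.123 to 1.93 CPM in controls and 0.286 to 9.76 with the drug. Klf1, an erythroid transcription factor, was at 1.55 to 4.31 and 0.759 to 26.9 CPM. The acinar median was 3.12 without NT replicate 5. It was 2.48 with R and rPS and -0.14 with RO, and the erythroid median was 1.33 and 0.13. The mitosis median was -0.77 and -0.39 in these comparisons, and the interferon median was -0.66 and -0.25. Each of these medians was larger in size with R and rPS than with RO. A link between these lists was not tested. A further fit held 3 covariates built from lists of other cells: erythroid, B cell, and monocyte with macrophage. None stood for acinar, plasma cell or germinal centre genes, so RNA of those was not adjusted for. With these covariates, 0 genes were called in edgeR and 1416 had an unadjusted p under 0.05. In that fit Spc24 stood at -1.10, 4933440M02Rik at 1.63, Pclaf at -1.37 and Oas3 at -0.77 (edgeR adjusted p = 0.0846 for each), and the medians were -0.87 in mitosis and -0.44 in the interferon list.

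**Figure D4:**
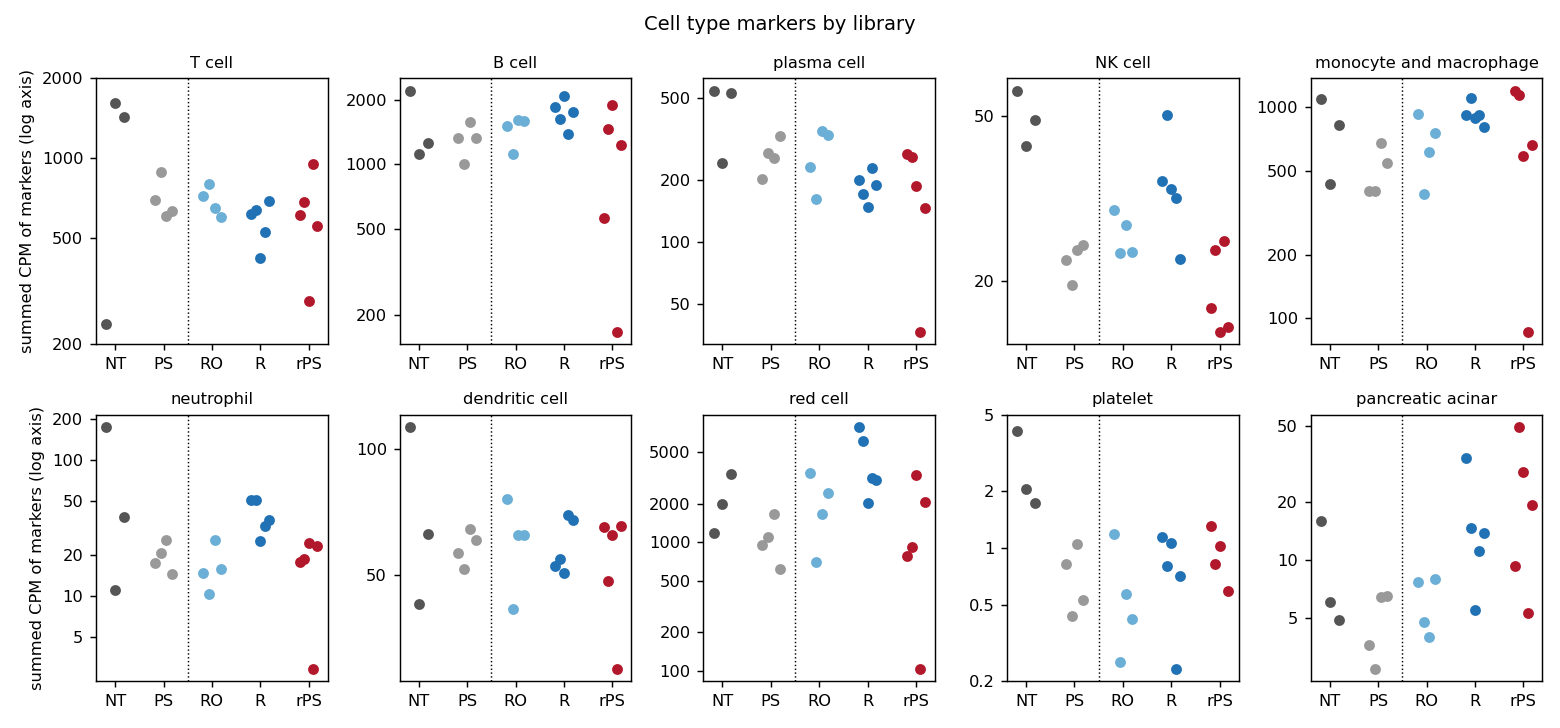
Summed CPM of the markers of 10 cell types in each library (vertical log axes), by group, with a dotted line between the controls and the drug groups. The single low point in the B cell, plasma cell, monocyte, neutrophil and red cell panels is rPS replicate 5, and NT replicate 5 is the lowest point for T cells (5 markers, without Cd3e) at 238 CPM. The platelet sum of rPS replicate 5 was 0 and has no point.

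The drug was also compared within 2 arms that share no library. With the carrier, rPS against PS called 6 of 15650 genes (0.0383%), 5 lower (0.0319%) and 1 higher (0.00639%). Syt6 rose by 4.93 ± 0.56, while Pclaf fell by 2.20 ± 0.25, Oas3 by 1.18 ± 0.15, Ighg2c by 3.29 ± 0.41 and Cenpk, a centromere protein, by 3.01 ± 0.36 on the log2 scale (edgeR adjusted p = 0.0241 for each). A histone gene, Hist1h2bk, fell by 2.57 ± 0.33 (edgeR adjusted p = 0.03). Without any one PS library, or without rPS replicate 7, 0 of these calls stood. Without the carrier, R and RO against NT called 1 of 16257 genes (0.00615%), Gzma, which fell by 1.86 ± 0.24 (edgeR adjusted p = 0.0254). There 2458 genes (15.1%) had an unadjusted p under 0.05, against 871 (5.57%) in the carrier arm. Leaving out NT replicate 5 gave 3654 calls in the free arm. That count rests on 2 untreated libraries, NT replicates 6 and 2, which had the highest T cell marker sums of all (1620 and 1433 CPM).

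Across the 15425 genes tested in both arms, 51.7% had the same sign and Pearson's r was 0.18 (Spearman's rho 0.09). This r is over genes, which are no independent replicates. Of the 857 genes with an unadjusted p under 0.05 in the carrier arm, 66.9% had the same sign in the free arm, and of 2349 in the free arm 56.3% had the same sign in the carrier arm. Both lists held 175 genes, 20.4% of the first and 7.45% of the second. Over all genes tested in each arm, 15.1% had such a p in the free arm and 5.57% in the carrier arm. Without regard to sign, the overlap was thus not far above these shares. The overlap to be expected for genes of the same sign was not computed. Of the 175 genes, 92 were lower in both arms, 37 higher in both and 46 opposite. Spc24 stood at -1.48 ± 0.34 and -1.36 ± 0.33 in the carrier and free arm, Mybl1 at -2.28 ± 0.38 and -1.52 ± 0.48, Bcl2 at 1.20 ± 0.22 and 0.57 ± 0.18, and Maml3 at 0.65 ± 0.15 and 0.66 ± 0.14. These genes are named for their values in the pooled comparison, which is made of the same libraries. A shared sign was favoured by that choice and is no independent evidence. The mitosis median was -1.11 and -0.59, and the interferon median was -0.51 and -0.52.

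**Figure D5:**
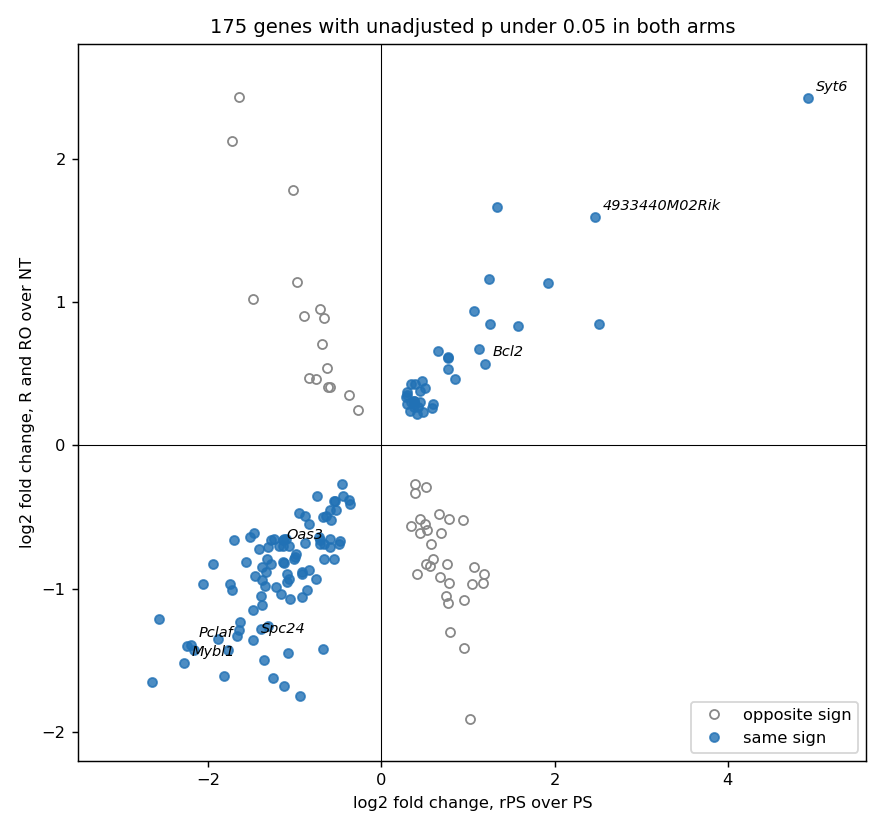
Log2 fold changes of the 175 genes with an unadjusted p under 0.05 in both arms, rPS over PS on the horizontal axis and R with RO over NT on the vertical one. Filled points have the same sign in both arms (92 lower and 37 higher), open points opposite signs (46), and Syt6 lies farthest to the right at 4.93.

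The test of the difference between the arms called 0 of 17000 genes in edgeR, with 1228 (7.22%) at an unadjusted p under 0.05. Without NT replicate 5 it called 227. The smallest p belonged to Leng8, at a difference of -1.03 ± 0.19 (edgeR adjusted p = 0.171). The control groups themselves, PS against NT, differed in 0 called genes, with 2455 (14.4%) at an unadjusted p under 0.05 and 1326 called without NT replicate 5. The choice of controls also set the count of the pooled comparison: 24 genes were called with NT as the only control group (0.143%) and 0 in edgeR with PS as the only one, where 923 (5.63%) had an unadjusted p under 0.05.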

How the data were processed

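RNA-seq libraries of sorted splenic T cells were used, 21 of 28. The authors deposited expected counts (estimated counts, fractional and not scaled to a common total) per gene for 55413 Ensembl IDs, 1 file per mouse. Per the submitters' processing notes, Trimmomatic 0.39, STAR 2.7.5a, Cufflinks 2.1.1 and Cuffdiff were used with build GRCm39. The counting tool, its annotation and its use of strand are not stated in the labels. The series' text speaks of single cells, while the files hold 1 profile per mouse. The counts were rounded and joined by ID, and 52082 IDs (94.0%) matched a symbol in GENCODE M21. Antisense and near-identical genes may share reads.

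Malat1 and mt-Rnr2 were removed, and libraries under 60 CPM of Cd3e and RO replicate 7 were left out. edgeR 4.0.16 (R 4.3.3) ran TMM scaling, filterByExpr and the robust quasi-likelihood test, two-sided, with Benjamini-Hochberg adjustment over all genes tested. Cd3e stayed in the fit, and no result reads it. Called means an adjusted p under 0.05. The pooled comparison was 14 against 7 libraries. The 2 arms, their difference, the drug groups among themselves and PS against NT were fitted the same way. The Cd4 to Cd8a ratio had an exact permutation test. Tested on simulated data for the pooled comparison (15658 genes), the fit recovered 72% of genes changed 2-fold and 90% of those changed 4-fold, with 4 false calls. The simulation gave all drug libraries the same change and all controls the same mean. Its shares therefore do not cover genes that differ among R, RO and rPS or between NT and PS. Total counts of 4286885 to 15696529 put 3 counts at 0.191 to 0.7 CPM. No 2 libraries were repeats of one (chi-square per gene of 3.3 or more for each pair).

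The members and the 38 gene lists were chosen with earlier results of these data known, so a list's direction is no independent evidence. The rule for named genes took called genes of at least 2 CPM with an official symbol, up to 5 in each other comparison, and a fixed set (such as Mtor, Cd4 and Syt6). The other genes named were chosen after their values were seen. Alternatives covered filtering, scaling, DESeq2 1.42.0, limma 3.58.1 (voom), the controls used, covariates, the replicate number and each library in turn. Promoters came from RefSeq (GRCm38.p6) by symbol, and 517 of 674 list genes had one. Of the genes the results turn on, Spc24, Zbp1 and Mybl1 had none in that table. The remaining called gene and some list members are not reported here.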

Additional observations from a re-analysis of the deposited data

Results flagged for a closer look

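In 144 sets of one gene in one group of 4 or 5 libraries (36 genes), 7 had a library far from the others of its group, about as many as the 1 in 20 that chance gives. Spc24 was at 6.1 CPM in PS replicate 1, with the next PS library at 4.68. Hmgb2 was at 94.4 CPM in PS replicate 5 (next 119), the value nearest to the drug libraries, and Mki67 was at 92.2 CPM in the same library (next 143). Mtor was at 159 CPM in R replicate 6 (next 143). In rPS replicate 5, Ighg3 was at 3.16 CPM (next 16.4) and Cd4 at 276 CPM (next 148). S100a8, a neutrophil gene, was at 3.53 CPM in RO replicate 6 (next 1.33).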

How the results depend on the processing

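Direction held more widely than calls. Over 36 alternatives Spc24 ran from -1.62 to -0.83 (called in 13, adjusted p from 4.48e-04 to 1 in edgeR, DESeq2 or limma), 4933440M02Rik from 0.71 to 2.28 (11), Pclaf from -2.07 to -0.62 (11), Oas3 from -1.03 to -0.37 (10) and Syt6 from 0.61 to 4.10 (9). The mitosis median ran from -1.02 to -0.39 and the interferon median from -0.66 to -0.26. Against 3 calls in the pooled comparison, there were 8 without a low-count filter, 27 with all libraries, 50 with DESeq2, 50 with group means, 53 with the carrier as a covariate, 24 with NT alone and 0 with PS alone as controls, 0 with 3 other-cell covariates, 12 with limma voom and 0 to 13 without single libraries. Of alternatives chosen after seeing the data, leaving out rPS replicates 4 and 5 gave 0, R and rPS alone 58 and RO alone 0. The carrier arm (6) gave 18 without a filter, 111 with DESeq2 and 0 to 10 without single libraries. The free arm (1) gave 24, 395 and 0 to 3654, and 102 with all libraries. Without single libraries, the test among drug groups (11) gave 1 to 151 (151 without rPS replicate 2), the difference between arms (0) 0 to 227 and PS against NT (0) 0 to 1326, the highest of the last 2 without NT replicate 5. The Cd4 to Cd8a difference was -0.52 with all libraries but RO replicate 7 (exact permutation p = 0.0266), and without single libraries it ran from -0.59 (rPS replicate 4 left out, exact permutation p = 0.0211) to -0.41. The causes were not tested.

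Same-numbered libraries did not pair (26 pairs, r of their deviations -0.39 to 0.42, median -0.01, 6 over 0.1). With the replicate number as a block, 0 genes were called in the pooled comparison, 0 in the carrier arm and 0 in the free arm. Signs turned for genes that were not called: Cd8a (0.26 with all libraries, 0.01 with the replicate block, 0.05 with RO alone, -0.22 to 0.01 without single libraries), Foxp3 (0.08 with all libraries, 0.13 with PS alone, -0.25 to 0.02 without single libraries), Hbb-bs (-0.15 with NT alone, -0.46 with the covariates), Ighm (0.03 with RO alone), Lyz2 (-0.98 with all libraries, -0.45 with NT alone, -0.23 with RO alone) and S100a8 (0.59 with PS alone, 0.43 with voom). Fkbp1a was at 0.00 with all libraries. Depth limits genes near 0.191 to 0.7 CPM.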

Other observations

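Red pulp macrophage genes all had positive log2 fold changes (14 of 14, median 0.54), beside 7843 of 15870 over all genes tested. The mean log2 CPM of this list lay above the highest control in 7 of 14 drug libraries and below the lowest control in 3. At an unadjusted p under 0.05, 2 of its genes were higher, Cd163, the haemoglobin scavenger receptor (1.01), and Trf (0.85). In oxidative phosphorylation 4 of 22 genes were lower and 0 higher (median -0.12, and -0.03 without NT replicate 6), and in the follicular helper and exhaustion list 3 of 11 were lower, Pdcd1 (-0.74), Tox2 (-0.91) and Lag3 (-0.45). Of naive T cell genes, Txnip (0.49) and Igfbp4 (0.68) were higher, 2 of 14. None of these genes was called in edgeR.

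Some lists had different medians in the arms. Cytosolic ribosomal proteins stood at 0.30 in the carrier arm and -0.40 in the free arm, T cell receptor genes at -0.04 and -0.47, and B cell genes at -0.30 and 0.35. These differences were not tested as lists.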
